A study of Mus musculus with 17 samples.

Results

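The Bcl2 family was followed here through 10 member genes: Bcl2, Bcl2l1, Mcl1, Bax, Bak1, Bad, Bid, Bcl2l11, Bbc3 and Pmaip1. Members were found by name, as the non-control probes whose gene name in the later scanner files is one of these symbols. This gave 18 probes of 10 genes, of 41174 probes and 28090 gene names on the array. Each gene was read by its probe with the highest mean intensity, and each further probe is described beside it. All groups came from bone marrow of female C57Bl/6 mice aged 6 to 8 weeks, with 10 to 20 mice pooled for a replicate sample. Marrow was depleted of lineage-positive cells and enriched for c-kit. HSC subsets, that is long-term HSC (LT-HSC), short-term HSC (ST-HSC) and multipotent progenitors (MPP), were taken in a single sort. A separate sort gave the myeloid populations: common myeloid progenitors (CMP), granulocyte-monocyte progenitors (GMP) and megakaryocyte-erythroid progenitors (MEP). Where HSC subsets are set against myeloid populations, sort and population therefore cannot be told apart. Each RNA went onto its own single-color array, 17 in all, with 2 for LT-HSC and 3 for every other population.

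Proteins of this family decide whether the outer membrane of the mitochondrion stays intact. Bcl2, Bcl2l1 (Bcl-xL) and Mcl1 keep it closed, Bax and Bak1 open it, and the BH3-only proteins Bad, Bid, Bcl2l11 (Bim), Bbc3 (Puma) and Pmaip1 (Noxa) block the protectors or switch on the effectors. An opened membrane releases cytochrome c, which starts the caspase cascade through Apaf1. In blood formation Mcl1 is known for its need in stem cells and Bcl2l1 for its need in maturing red cells, while Bbc3 and Pmaip1 are classical targets of p53.

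Every value is a log2 intensity of a spot after quantile normalization across the 17 arrays. A probe's brightness also depends on its sequence, so levels were compared between populations for a probe and never between probes. The arrays carried RNA of whole sorted samples, in which fewer cells of a type and less RNA per cell cannot be told apart. A difference was called at an adjusted p under 0.05 from limma over all 41174 probes. Nothing in the labels says whether arrays of a population came from separate sorts beyond the pooling of mice, so p-values measure the spread between these samples. The arrays were scanned on 4 days. Day 1 held replicates 1 and 2 of CMP, GMP and MEP, and these 6 of the 9 myeloid arrays were also read on another scanner model and with an earlier version of the extraction software than all other arrays. A fit with day takes up that difference. Day 4 held both LT-HSC arrays with replicates 2 and 3 of ST-HSC and MPP. The remaining unnumbered arrays were GMP, CMP and MPP on day 2 and MEP and ST-HSC on day 3. On the unnumbered array of LT-HSC signals were weak, the 75th percentile of intensity being 53.1 where each other array had at least 243.3, and 41.4% of its spots were well above background.

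Markers were read for GMP, MEP and the HSC subsets together, and no list was chosen to tell LT-HSC, ST-HSC, MPP and CMP apart. All 6 GMP markers, among them Mpo and Elane, were called higher in GMP than in the other populations, and all 6 MEP markers, among them Gata1 and Klf1, were called higher in MEP. The mean of the GMP list was 14.71 to 14.98 in GMP, 12.81 to 13.48 in ST-HSC and 12.06 to 12.90 in CMP. It was 10.81 to 12.29 in LT-HSC and 10.39 to 11.69 in MPP. That of the MEP list was 13.30 to 13.51 in MEP, 10.88 to 11.81 in LT-HSC and 10.11 to 11.26 in CMP. On it ST-HSC had 9.59 to 10.09 and MPP 7.50 to 8.25. All 7 HSC subset markers, among them Hlf, were called higher in HSC subsets than in myeloid populations. Of these 7, Ly6a (Sca-1) was also called higher in GMP than in the other populations, with a mean of 9.71 in GMP against 8.88 in ST-HSC. Cd34 had a mean of 14.96 in LT-HSC and 14.29 in GMP.

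Promoter windows from RefSeq (build GRCm38.p6, 250 bases before to 50 bases after a gene start) were read for 9 members. Shown are Bak1 (chr17:27028578-27028877, minus strand) and Bid (chr6:120916775-120917074, minus strand), whose brightest probes had alike profiles across the populations, Bax (chr7:45466849-45467148, minus strand), the other effector, and Bcl2 (chr1:106714241-106714540, minus strand), which was lowest in MEP. The letters searched, on both strands, were the PU box GAGGAA, the GATA motif AGATAA, the E-box CACGTG, the STAT motif TTCNNNGAA and the p53 half-site, given by name. Capitals mark each match.
Bak1: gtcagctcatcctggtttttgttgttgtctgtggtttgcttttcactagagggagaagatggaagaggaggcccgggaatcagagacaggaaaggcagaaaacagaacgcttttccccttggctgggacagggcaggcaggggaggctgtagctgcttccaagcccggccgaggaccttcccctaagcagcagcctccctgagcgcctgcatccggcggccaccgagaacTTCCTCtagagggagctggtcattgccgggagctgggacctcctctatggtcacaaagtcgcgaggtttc
Bid: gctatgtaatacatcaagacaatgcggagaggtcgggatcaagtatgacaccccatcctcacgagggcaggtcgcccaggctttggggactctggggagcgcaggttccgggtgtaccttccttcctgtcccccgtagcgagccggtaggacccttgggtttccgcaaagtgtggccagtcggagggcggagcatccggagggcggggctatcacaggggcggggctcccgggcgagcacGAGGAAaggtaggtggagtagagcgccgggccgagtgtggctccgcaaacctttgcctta
Bax: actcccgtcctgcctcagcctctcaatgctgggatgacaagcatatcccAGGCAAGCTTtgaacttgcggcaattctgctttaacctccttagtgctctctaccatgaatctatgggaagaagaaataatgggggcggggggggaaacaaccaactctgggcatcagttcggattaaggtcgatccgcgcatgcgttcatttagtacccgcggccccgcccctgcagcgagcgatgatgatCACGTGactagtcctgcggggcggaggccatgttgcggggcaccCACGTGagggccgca
Bcl2: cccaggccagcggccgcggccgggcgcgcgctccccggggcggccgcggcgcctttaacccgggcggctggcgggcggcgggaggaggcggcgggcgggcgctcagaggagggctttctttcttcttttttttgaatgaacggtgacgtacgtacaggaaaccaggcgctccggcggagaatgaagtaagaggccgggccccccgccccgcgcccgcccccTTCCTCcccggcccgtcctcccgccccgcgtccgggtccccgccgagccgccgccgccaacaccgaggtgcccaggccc

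Bak1, Bid and Bcl2 each held a single PU box, the letters that the myeloid factor PU.1 reads, at positions -20, -10 and -29 from the start. On Bak1 and Bcl2 it lay on the reverse strand. Of all 32841 windows of this length, 28.3% hold a PU box, and of all 15 member windows 4 did. The Bax window held 2 E-boxes, at -9 and 36 from the start, and a p53 half-site at -201, against 7.15% and 8.36% of all windows with any such match. Of all 15 member windows 2 held an E-box and 1 a p53 half-site. None of the 4 windows held AGATAA or TTCNNNGAA, found in 11.2% and 8.30% of all windows. These are matches of letters in a short window, and nothing was measured here of binding.

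Of the 10 members, 9 differed among the 6 populations by the F-test of limma, where 40.6% of all probes did. The exception was Bad, with an adjusted p of 0.105 on its brightest probe, which lies on the strand opposite to the gene. On the Bad probe of the gene's own strand it was 0.0252, and 10 of 10 members passed with that probe. Once scanning day entered the fit 6 members and 33.5% of all probes passed, as Bcl2l1 (adjusted p = 0.103), Bax (0.0622) and Bcl2l11 (0.0622) no longer did. Bcl2l1 also missed the threshold with slide as a random block (adjusted p = 0.0627), and Bak1 did with the mean of its probes (adjusted p = 0.525). The adjusted p was lowest for Pmaip1 (4.16e-06), Bcl2 (7.34e-06) and Mcl1 (1.08e-05) and highest among the called for Bax (0.0339). The span between the highest and the lowest population mean was 4.73 on the log2 scale for Pmaip1, 3.58 for Bcl2 and 3.14 for Bbc3. It was 1.33 for Bax and 1.43 for Bid.

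**Figure D1:**
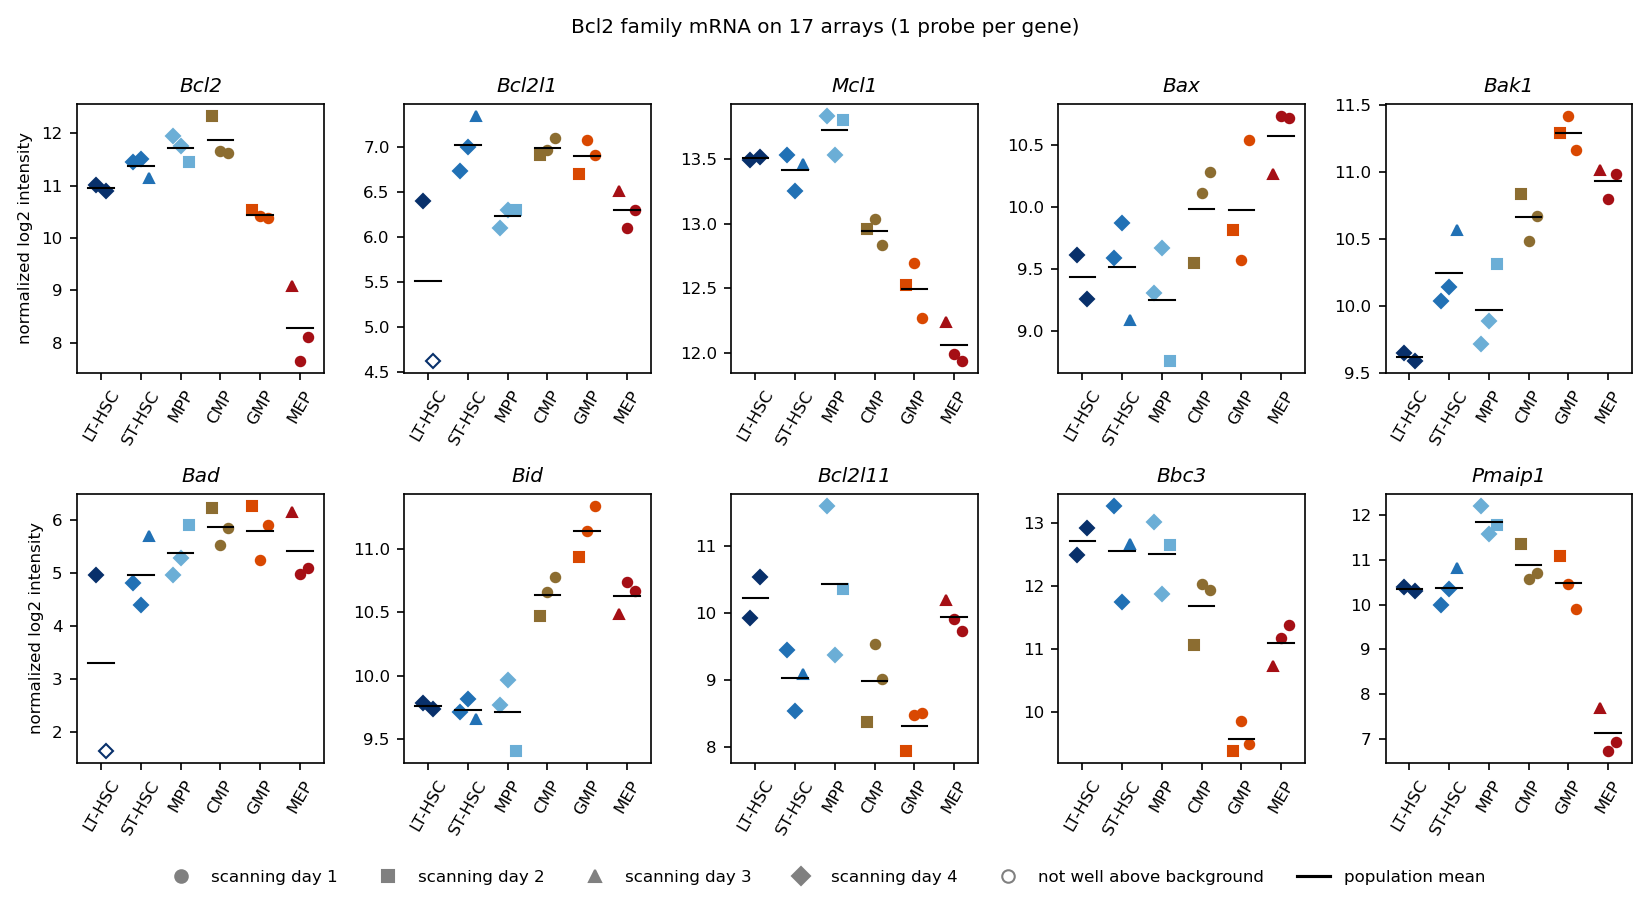
Normalized log2 intensity (vertical axis) of each member's brightest probe on the 17 arrays, by population (horizontal axis). A point is an array, its shape the scanning day, an open point is not well above background, and bars are population means. Bcl2 and Pmaip1 dropped in MEP, Bbc3 in GMP, and Bak1 and Bid were highest in GMP.

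**Figure D2:**
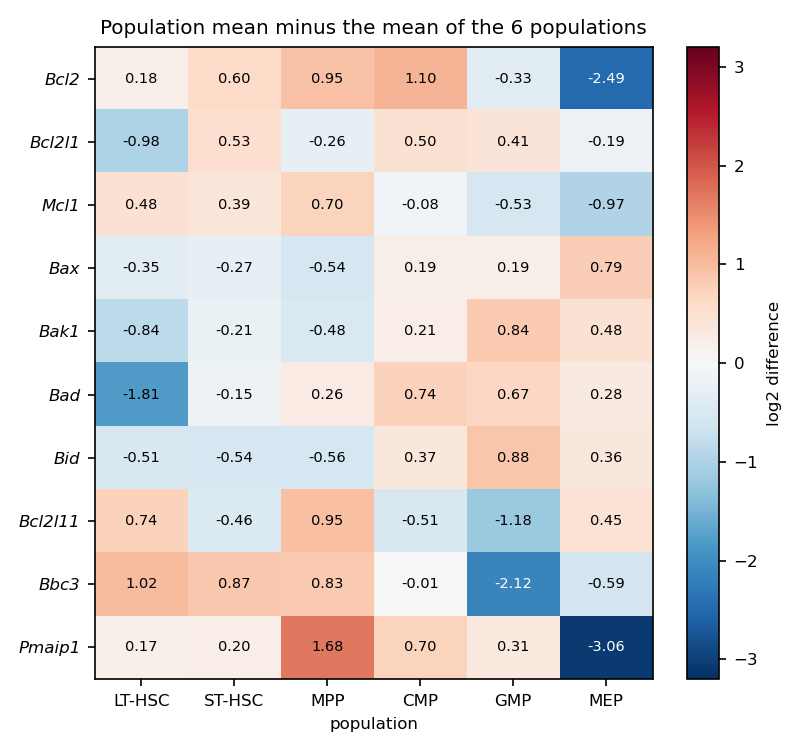
Mean log2 intensity of each population (columns) minus the mean of the 6 population means, for each member (rows). Pmaip1 stood at -3.06 in MEP and 1.68 in MPP.

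Among the protectors, Bcl2 mRNA was lowest in MEP. The probe of its transcript NM_009741 lies at 108434793 to 108434852 of chromosome 1 (mm9, minus strand), at base 7109 of the transcript, and was printed as 10 spots. In MEP the arrays read 9.08, 7.66 and 8.11. CMP, the highest population, read 12.33, 11.66 and 11.63. The 3 MEP arrays thus lay below all 14 others, the nearest of which was a GMP array at 10.37. MEP minus the other populations was -2.99 ± 0.24 (SE) on the log2 scale, a 7.92-fold difference (adjusted p = 5.98e-07, limma). GMP, at 10.45 ± 0.08 (SD, n = 3), was 4.47-fold above MEP (adjusted p = 0.000157). In order, CMP, MPP and ST-HSC overlapped with their neighbours, while ST-HSC, LT-HSC, GMP and MEP did not overlap with each other.

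HSC subsets were called higher than myeloid populations in Bcl2, by 1.15 ± 0.18 (SE) on the log2 scale (adjusted p = 0.000220). Once scanning day entered the fit this was 0.33 ± 0.20 (adjusted p = 0.341). Within day 2 the MPP array was 0.02 above the mean of GMP and CMP, and within day 3 the ST-HSC array was 2.07 above MEP. The 8 HSC subset arrays ran from 10.90 to 11.95 and lay inside the myeloid range. The difference from MEP kept its call with day in the fit, at -2.62 ± 0.17 (adjusted p = 4.40e-06). The probe of NM_177410 followed the first with r = 0.85 over the 17 arrays. Its difference was -2.28 in MEP (adjusted p = 2.32e-06), and it was 0.26 ± 0.16 higher in HSC subsets (adjusted p = 0.232). The third probe, of the cDNA AK077913, differed by -1.77 in MEP (adjusted p = 0.000284) and by -0.31 ± 0.22 in HSC subsets (adjusted p = 0.288).

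Mcl1 was highest in the HSC subsets and lower in CMP, GMP and MEP in that order. Its probe lies at 95466855 to 95466914 of chromosome 3 (mm9, plus strand). The 8 HSC subset arrays ran from 13.25 to 13.83 with a median of 13.53, and the 9 myeloid arrays from 11.94 to 13.03 with a median of 12.53. No array of either side overlapped with the other. HSC subsets were 1.05 ± 0.09 (SE) higher on the log2 scale, or 2.07-fold (adjusted p = 2.09e-06). The difference was 1.03 ± 0.17 with scanning day in the fit (adjusted p = 0.00525), and within days 2 and 3 it was 1.07 and 1.22. Among the myeloid populations the means were 12.94 ± 0.10 in CMP, 12.50 ± 0.22 in GMP and 12.06 ± 0.16 in MEP (SD, n = 3 each), with no overlap between neighbours. MEP was 2.23-fold below the others (adjusted p = 6.04e-06) and GMP 1.55-fold (adjusted p = 0.00199). GMP against MEP, 0.44 ± 0.15, missed the threshold (adjusted p = 0.0686) and passed it with the replicate block (adjusted p = 0.0342). It also passed with slide as a random block (adjusted p = 0.0272), background correction by normexp (0.0203) and the authors' log2 values (0.0363). The same held without the unnumbered MEP array (0.0431) or GMP replicate 2 (0.0395). A probe upstream in the same transcript gave a smaller difference in GMP against MEP, 0.18 ± 0.26 (adjusted p = 0.793), with overlapping arrays. Its other differences were larger, 1.71 in HSC subsets against myeloid populations (adjusted p = 3.55e-06) and -1.45 for MEP (adjusted p = 0.000111), with r = 0.94 between the probes.

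Bcl2l1, the protector known from red cell maturation, had the smallest span of means among the protectors, 1.51. Its probe of 10 spots (chromosome 2, 152606631 to 152606690 of mm9, minus strand) read 6.10, 6.30 and 6.51 in MEP and 6.70 to 7.08 in GMP. ST-HSC was highest at 7.02 ± 0.31 (SD, n = 3). The unnumbered LT-HSC array was at 4.62 and not well above background, while the other LT-HSC array was at 6.40. None of the 4 contrasts was called. HSC subsets differed by -0.47 (95% interval -0.91 to -0.04, adjusted p = 0.0757). GMP stood 0.60 above MEP (95% interval -0.12 to 1.32), with an adjusted p of 0.308 on all arrays and 0.0314 without either LT-HSC array. Without the unnumbered LT-HSC array MEP was called lower than the others (-0.41, adjusted p = 0.0420), and without the pooled one HSC subsets were called lower (-0.77, adjusted p = 0.000224). With the replicate number as a block, a fit without the pooled array, Bcl2l1 was called in HSC subsets (-0.81, adjusted p = 0.00217), in GMP (0.69, adjusted p = 0.0117) and in GMP against MEP (0.60, adjusted p = 0.0472). The further probes of Bcl2l1 were dim, well above background on 11 and 8 of 17 arrays. The dimmer of them was well above background on 2 of 8 HSC subset arrays, all CMP and GMP arrays and no MEP array. It was called lower in HSC subsets (adjusted p = 0.000121, or 0.252 with scanning day in the fit), with no size given since most of that side was at background. It was also called higher in GMP against the others (adjusted p = 0.0325), a call lost in 8 of 25 other settings. The mean of the 3 probes was called in HSC subsets (-0.61, adjusted p = 0.000347) and in GMP (0.50, adjusted p = 0.0163). The other was not called, at 0.46 ± 0.23 (adjusted p = 0.135). With r of 0.08 and 0.46 to the first probe, the 3 probes of Bcl2l1 do not give a common profile.

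Both effectors were lower in HSC subsets than in myeloid populations on their brightest probes. Bax has a probe of 10 spots that crosses an intron (chromosome 7, 52721469 to 52721624 of mm9, minus strand). It was highest in MEP, where the arrays read 10.27, 10.74 and 10.72, and lowest in MPP, at 9.31, 9.67 and 8.76. HSC subsets were 1.72-fold lower, at -0.78 ± 0.19 (SE) (adjusted p = 0.00493). With scanning day in the fit the difference was -1.02 ± 0.28 (adjusted p = 0.0414), and within days 2 and 3 it was -0.92 and -1.18. MEP was 1.92-fold above the other populations (adjusted p = 0.00966). GMP against MEP, -0.60 ± 0.32, was called with the replicate block (adjusted p = 0.0454) and not without it (0.274). The MEP call was lost without MEP replicate 1 (adjusted p = 0.0575) or replicate 2 (adjusted p = 0.0548). Neighbours in the order of Bax means all overlapped, and the F-test also missed the threshold without any one of 7 arrays (adjusted p from 0.0514 to 0.103), which were MEP replicates 1 and 2, ST-HSC replicate 2, MPP replicate 2, CMP replicate 1 and the unnumbered LT-HSC and MPP arrays.

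Bak1 had its highest level in GMP. The probe (chromosome 17, 27156967 to 27157026 of mm9, minus strand) read 11.30, 11.42 and 11.17 in GMP and 9.65 and 9.59 in LT-HSC. All 3 GMP arrays lay above the 14 others. GMP exceeded the other populations by 1.01 ± 0.14 (SE) on the log2 scale, or 2.01-fold (adjusted p = 0.000278), and MEP exceeded the others by 0.57 ± 0.14 (adjusted p = 0.00742, or 0.0650 without the LT-HSC arrays). HSC subsets were 2.03-fold lower than myeloid populations, at -1.02 ± 0.11 (adjusted p = 1.17e-05). That difference was -0.72 ± 0.14 with scanning day in the fit (adjusted p = 0.0104), and within days 2 and 3 it was -0.76 and -0.45.

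A second Bak1 probe, at base 598 of the same transcript against 1732 for the first, ran the other way. It was called higher in HSC subsets, by 0.92 ± 0.29 (adjusted p = 0.0218, or 0.0844 without the unnumbered LT-HSC array), and had r = -0.61 with the first probe over the 17 arrays. With scanning day in the fit its difference was -0.21 (adjusted p = 0.823). The mean of both probes gave -0.05 for HSC subsets against myeloid populations (adjusted p = 0.810) and no call for Bak1 in any contrast.

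Bid, which caspase 8 cuts to link death receptors to mitochondria, followed Bak1 with r = 0.83 over the 17 arrays and 0.93 over the 6 population means. The arrays share normalization and scanning days, so these values are descriptions. Its probe (chromosome 6, 120843464 to 120843523 of mm9, minus strand) read 10.94, 11.15 and 11.34 in GMP. The 8 HSC subset arrays lay between 9.41 and 9.96 and the 9 myeloid arrays between 10.47 and 11.34, with no overlap. HSC subsets were 2.10-fold lower, at -1.07 ± 0.10 (SE) (adjusted p = 3.30e-06), and -1.15 ± 0.13 with scanning day in the fit (adjusted p = 0.000622). Within days 2 and 3 the difference was -1.30 and -0.83. GMP was 2.07-fold above the other populations (adjusted p = 8.23e-05) and 1.42-fold above MEP (adjusted p = 0.0476). The call against MEP was lost in 16 of 27 other settings, 13 of them with 1 array left out, with adjusted p up to 0.246. MEP was 1.35-fold above the others (adjusted p = 0.0183), a call lost without MEP replicate 1 (adjusted p = 0.100) or 2 (0.0750) and without both LT-HSC arrays (0.0769). LT-HSC, ST-HSC and MPP overlapped with each other, at 9.76, 9.73 and 9.71.

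**Figure D3:**
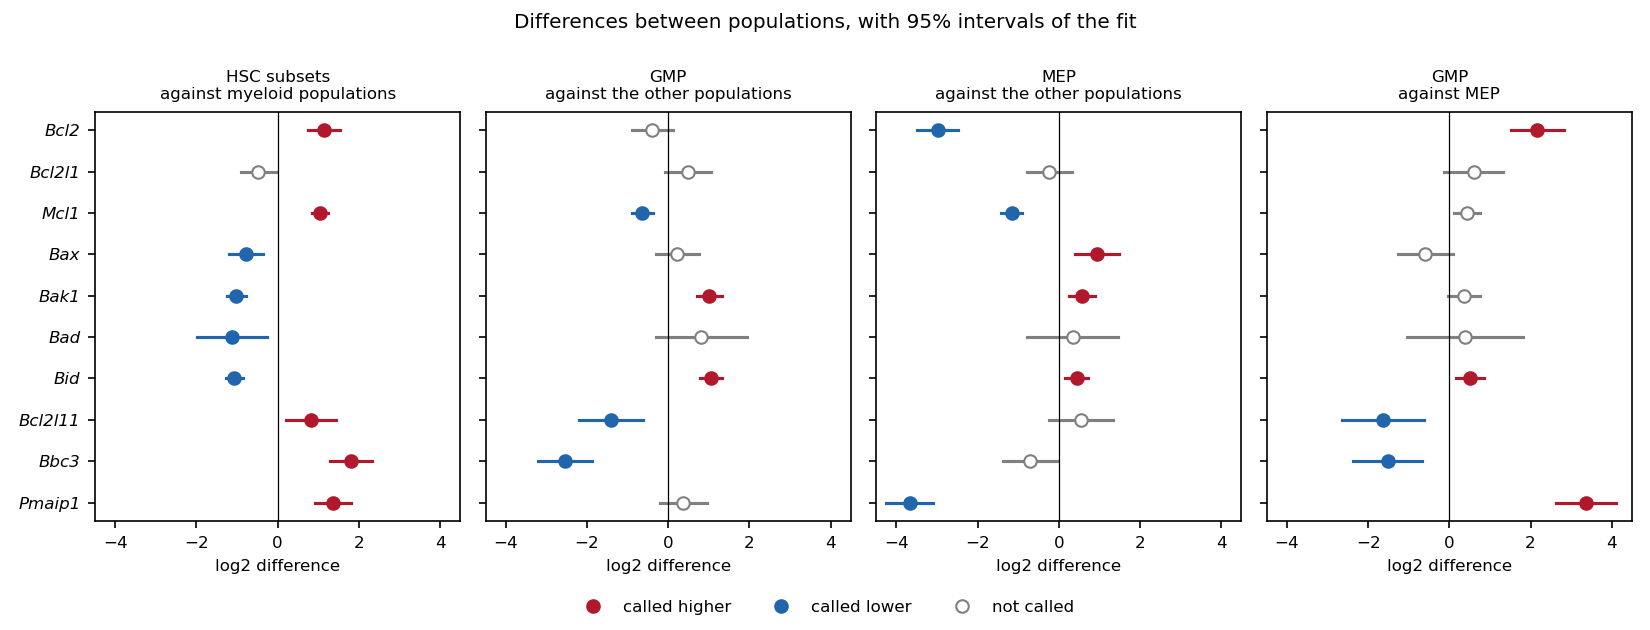
Difference in log2 intensity (horizontal axis) for the brightest probe of each member (vertical axis) in the 4 contrasts. Bars are 95% intervals of the limma fit on 17 arrays. Filled points were called. In HSC subsets against myeloid populations Bcl2, Mcl1, Bcl2l11, Bbc3 and Pmaip1 were higher and Bax, Bak1, Bad and Bid lower.

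Among the BH3-only genes, Bbc3 was lowest in GMP. Its probe lies at 16903403 to 16903462 of chromosome 7 (mm9, plus strand). GMP arrays read 9.38, 9.84 and 9.48 and LT-HSC arrays 12.49 and 12.92. The next lowest array, of MEP, was at 10.73, so GMP stood apart from all other arrays. GMP was 5.81-fold below the other populations, at -2.54 ± 0.31 (SE) on the log2 scale (adjusted p = 8.32e-05), and 2.87-fold below MEP (adjusted p = 0.0156). The call against MEP was lost without the unnumbered GMP array (adjusted p = 0.0568), GMP replicate 2 (0.0520) or MEP replicate 1 (0.0508) or 2 (0.0633). HSC subsets were 3.51-fold above myeloid populations (1.81 ± 0.24, adjusted p = 5.18e-05). The difference was 2.34 ± 0.47 with scanning day in the fit (adjusted p = 0.0113), and within days 2 and 3 it was 2.43 and 1.93. MEP against the others, -0.71 ± 0.31 (adjusted p = 0.102), was called with the replicate block, at -1.02 (adjusted p = 0.000404). From LT-HSC through ST-HSC, MPP, CMP and MEP the means ran 12.71, 12.56, 12.51, 11.68 and 11.09, and each overlapped with the next.

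Pmaip1 showed the largest difference of any member, in MEP. Its probe read 7.69, 6.74 and 6.94 in the MEP arrays, and 12.20, 11.58 and 11.79 in those of MPP. No MEP array came near the other 14, the lowest of which was a GMP array at 9.91. MEP was 12.7-fold below the others, at -3.67 ± 0.27 (SE) on the log2 scale (adjusted p = 2.93e-07), and GMP was 10.3-fold above MEP (adjusted p = 9.70e-06). The MEP difference with scanning day in the fit was -3.52 ± 0.21 (adjusted p = 2.90e-06), and it was -3.58 within day 1 and -3.12 within day 3. MPP, at 11.85 ± 0.32 (SD, n = 3), lay above all other arrays. HSC subsets exceeded myeloid populations by 1.36 ± 0.21 (adjusted p = 0.000150), or by 0.97 ± 0.25 with scanning day in the fit (adjusted p = 0.0324). CMP, GMP, ST-HSC and LT-HSC overlapped in that order, between 9.91 and 11.35. The profile of Pmaip1 ran with that of Bcl2, with r = 0.93 over the 17 arrays.

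Bcl2l11 was lowest in GMP on its brightest probe, at 7.95, 8.48 and 8.50, against 10.19, 9.91 and 9.72 in MEP and 11.59, 9.37 and 10.35 in MPP. The probe lies at 127988051 to 127988110 of chromosome 2 (mm9, plus strand). The MPP arrays had the widest spread of any population for this gene (SD 1.11). GMP was 2.66-fold below the others (-1.41 ± 0.37 SE, adjusted p = 0.0152, or 0.0822 without the unnumbered GMP array) and differed from MEP by -1.63 ± 0.47 (adjusted p = 0.0271). HSC subsets were called higher by 0.82 ± 0.28 (adjusted p = 0.0325), with the adjusted p rising to 0.360 when scanning day entered the fit and to 0.0937 without the unnumbered LT-HSC array. The call was lost in 11 of 27 other settings, in 1 of them with the sign turned. These included slide as a random block (adjusted p = 0.103) and leaving out ST-HSC replicate 2, the unnumbered GMP or CMP array or MEP replicate 1 or 2 (adjusted p from 0.0528 to 0.0647). The within-day values had opposite signs, 2.19 for MPP against GMP and CMP on day 2 and -1.09 for ST-HSC against MEP on day 3. With scanning day in the fit neither GMP contrast was called (adjusted p = 0.117 and 0.103), and against MEP the call was also lost without any of the 3 GMP arrays, MEP replicate 1 or the unnumbered MEP array (adjusted p from 0.0536 to 0.100). Bcl2l11 has a further probe, which crosses an intron of the same transcript. Its lowest mean was in ST-HSC, 3.91 against 5.01 in GMP, and GMP against the others was -0.16 ± 0.43 (adjusted p = 0.844). The mean of both probes was not called in GMP either (-0.79, adjusted p = 0.154). The junction probe was highest in MEP, at 7.19, 6.57 and 6.58, above all other arrays, and 3.91-fold over the other populations (adjusted p = 0.00284, or 0.0806 with scanning day in the fit). It was lower in HSC subsets, at -1.02 ± 0.33 (adjusted p = 0.0235), opposite to the first probe, and at -0.16 with scanning day in the fit (adjusted p = 0.911) and -0.24 with 75th percentile scaling (adjusted p = 0.518). The replicate block also ended this call (adjusted p = 0.156). Lower GMP than MEP was common to both probes, at -1.77 ± 0.54 on the junction probe (adjusted p = 0.0385). The junction probe lost this call in 9 of 25 other settings, among them scanning day in the fit (adjusted p = 0.0683) and 8 single arrays left out (adjusted p up to 0.137, without the unnumbered GMP array).

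Bad was dim on the array. Its brighter probe, of the cDNA AK029400, lies at 7025594 to 7025653 of chromosome 19 on the minus strand of mm9. The probe of NM_007522 lies on the plus strand at 7016618 to 7016677, and RefSeq places Bad on the plus strand. The NM_007522 probe read 5.34 to 6.17 in CMP, 5.65 to 6.58 in GMP and 5.29 to 6.06 in MEP, all above the 8 HSC subset arrays, which ran from 2.71 to 5.10. Both LT-HSC arrays were not well above background on it. HSC subsets were 3.15-fold lower, at -1.66 ± 0.34 (SE) (adjusted p = 0.00168), while with scanning day in the fit the difference was -0.14 (adjusted p = 0.913). The minus-strand probe gave -1.13 ± 0.40 (adjusted p = 0.0367), a call lost in 14 of 27 other settings, among them scanning day (-0.99, adjusted p = 0.471) or slide (adjusted p = 0.121) in the fit. Without the unnumbered LT-HSC array, at 1.66 and not well above background, this was -0.58 (adjusted p = 0.120). Neither probe was called in GMP or MEP on all 17 arrays. With the replicate number as a block and the pooled LT-HSC array out, the minus-strand probe passed the F-test (adjusted p = 5.00e-05) and was called higher in GMP, by 1.28 (adjusted p = 0.000797), and in MEP, by 0.81 (adjusted p = 0.00451). Leaving out that pooled array alone gave 1.14 in GMP (adjusted p = 0.0288).

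**Figure D4:**
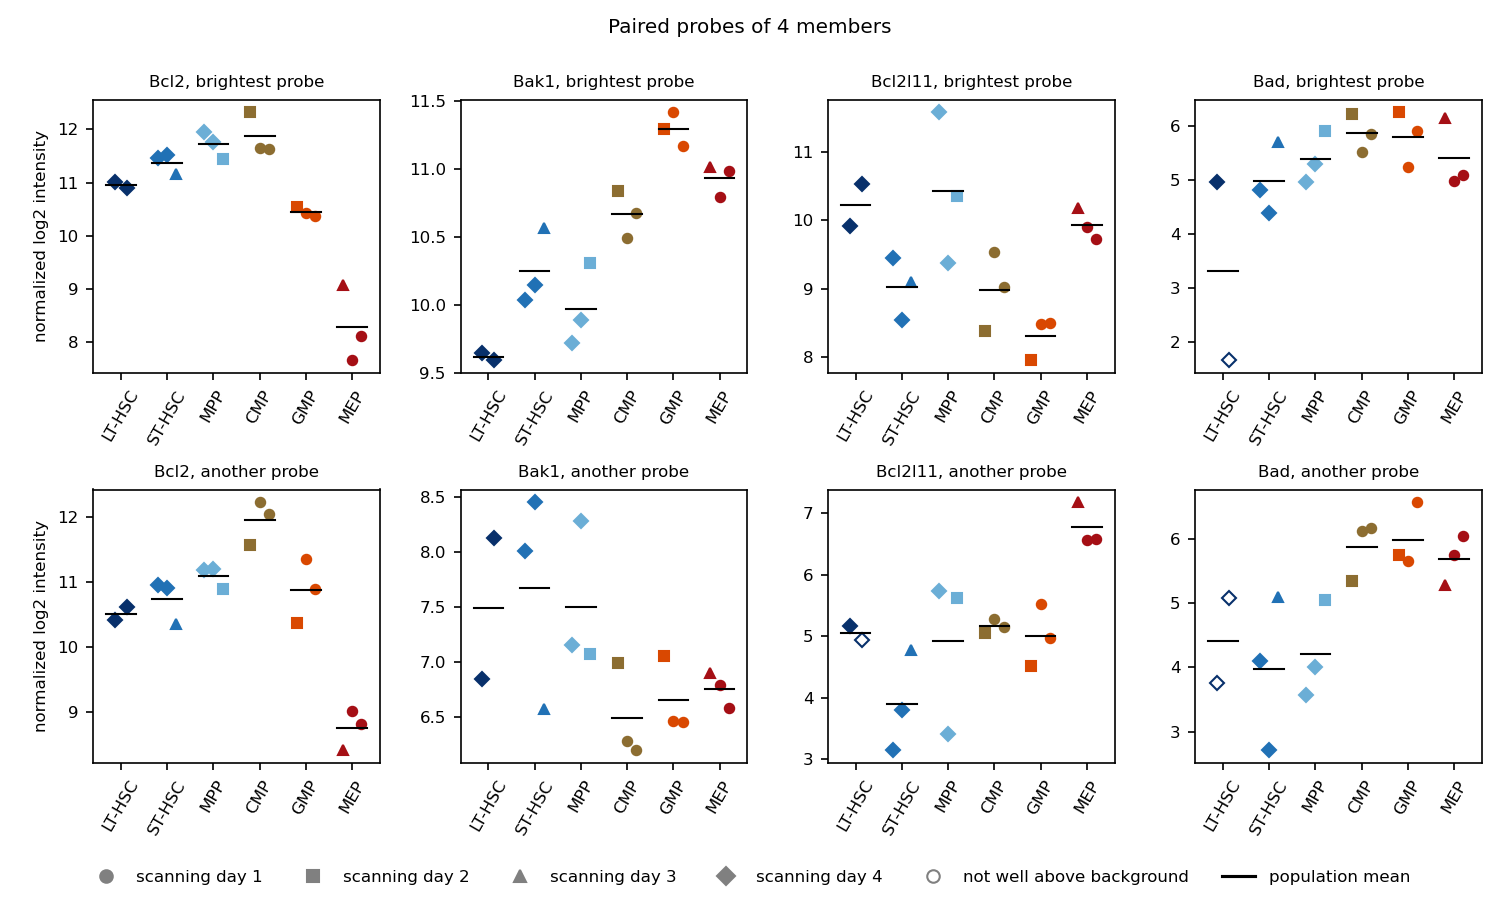
Normalized log2 intensity (vertical axis) of the brightest probe (upper row) and of another probe (lower row) of Bcl2, Bak1, Bcl2l11 and Bad, by population (horizontal axis), with symbols for scanning days and bars for means. The probes of Bcl2 agreed on low MEP, and those of Bak1 ran in opposite directions between HSC subsets and myeloid populations.

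Counted over the brightest probes, 5 members were higher and 4 lower in HSC subsets than in myeloid populations, where 18.2% and 23.1% of all probes were. In GMP against the other populations 2 were higher and 3 lower, with 11.2% and 8.51% of all probes. In MEP 3 were higher and 3 lower, with 17.9% and 13.4%. In GMP against MEP 3 were higher and 2 lower, with 9.56% and 7.81%. With the replicate number as a block 8 members were called there, 5 higher and 3 lower, and 11.5% of all probes were called in each direction. Without MEP replicate 1 the count in GMP against MEP was 2, both higher, with 3358 of all probes higher and 2660 lower. Over all 18 probes the counts were 7 and 7, 3 and 4, 4 and 6, and 5 and 3 in the same order. The median member difference was 0.17 in HSC subsets against myeloid populations, against -0.02 over all probes, and 0.41 against -0.07 in GMP against MEP. The 5 members higher in HSC subsets comprised 2 protectors and 3 BH3-only genes, and the 4 lower members comprised both effectors with Bad and Bid. This holds for the brightest probes, which for Bad is the minus-strand probe. Further probes of Bak1 (0.92, adjusted p = 0.0218, limma) and Bcl2l11 (-1.02, adjusted p = 0.0235) were called the opposite way. With scanning day in the fit Bcl2 (adjusted p = 0.341), Bcl2l11 (0.360) and Bad (0.471) lost their calls.

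Scaling each array to its 75th percentile in place of quantile normalization put the median difference of all probes at 0.31 in HSC subsets against myeloid populations, against -0.02 before. In GMP against the others it was -0.29 against -0.01, and in GMP against MEP -0.43 against -0.07. Of all probes called in HSC subsets against myeloid populations, 64.1% were then higher, against 44.0% after quantile normalization. In GMP against the others the share was 43.3% against 56.7%. Relative to the median under this scaling, HSC subsets differed by 0.62 in Mcl1, 1.43 in Bbc3, 1.05 in Pmaip1, -1.41 in Bak1 and -1.46 in Bid. No called member changed direction under this scaling. Bad and Bcl2l11 lost their calls in HSC subsets and Bid its call in GMP against MEP, while Bcl2l1 was then called lower in MEP than in the others (-0.64, adjusted p = 0.0318).

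**Figure D5:**
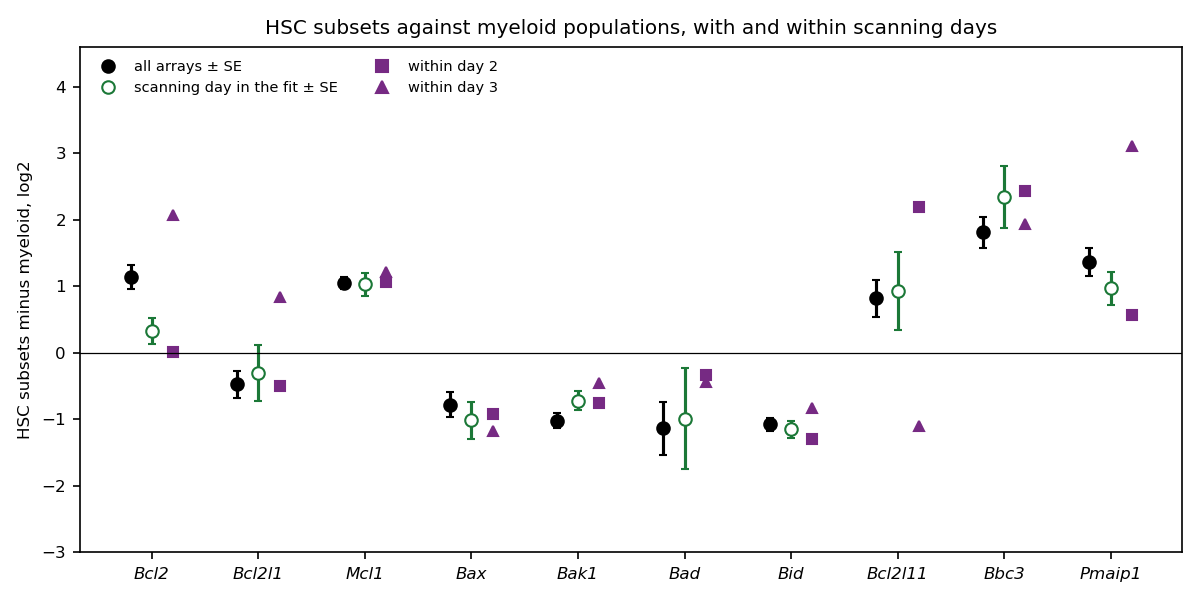
Log2 difference of HSC subsets minus myeloid populations (vertical axis) for each member (horizontal axis) from all 17 arrays, with scanning day in the fit (both ± SE) and within days 2 and 3 alone, which had no replicates. Mcl1, Bax, Bak1, Bid, Bbc3 and Pmaip1 kept sign and call with day in the fit, while Bcl2 dropped from 1.15 to 0.33.

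Markers of mature cells moved with the HSC subsets as well. All 5 T cell markers, 4 of 5 B cell markers and 4 of 6 mature neutrophil markers were called higher in HSC subsets than in myeloid populations. The mean log2 intensity of the B cell list was 9.17 to 9.61 in LT-HSC against 6.34 to 7.54 in ST-HSC, MPP and CMP, and 5.64 to 6.50 in GMP and MEP. That of the T cell list was at least 6.96 in LT-HSC, 6.23 to 6.66 in MPP, 5.54 to 5.58 in ST-HSC, 4.33 to 5.24 in MEP and 3.48 to 4.80 in CMP and GMP, with 2 or 3 of its 5 genes above background in CMP and GMP. The neutrophil list ranged from 12.60 to 14.11 in LT-HSC and from 9.76 to 12.36 in the myeloid populations. With both LT-HSC arrays left out, Bcl2, Mcl1, Bbc3 and Pmaip1 stayed called higher in HSC subsets, while Bcl2l11 (0.66, adjusted p = 0.108) and Bad (-0.51, adjusted p = 0.152) lost their calls. Mature erythroid markers, all 5 of them, were called higher in MEP, where their mean was 10.21 to 11.54 against 5.28 to 6.62 in GMP. The part of these markers' cells in the members' differences was not tested.

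Further genes of the pathway were read from lists. Of the other members of the wider Bcl2 family, 10 of 12 were on the array. In HSC subsets 5 were called higher, where 18.2% of all probes were, and the other 5 were not called, with a median difference of 0.37. Bok, an effector-like relative of Bax, had the largest, 3.42 ± 0.17 (SE) on the log2 scale (adjusted p = 2.04e-08), with means of 9.14, 9.52 and 9.72 in LT-HSC, ST-HSC and MPP and 4.53 in MEP. Bok was also higher in GMP than in MEP, by 1.35 ± 0.29 (adjusted p = 0.00436), with 1 of 3 MEP arrays well above background. The BH3-only gene Bik was not well above background in GMP and at least 2.10-fold lower there than in MEP (adjusted p = 0.000708).

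Downstream of the mitochondrion, 4 of 12 genes of the apoptosome and the caspases were higher and 3 lower in HSC subsets, where 18.2% and 23.1% of all probes were. The inhibitor Birc3 (cIAP2) was the most raised in HSC subsets, by 1.09 ± 0.16 (adjusted p = 0.000124).

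Of 12 genes of p53 and its targets, 7 were higher and 1 lower in HSC subsets, where 18.2% and 23.1% of all probes were, with a median difference of 0.75. In GMP against the other populations 6 were lower, where 8.51% of all probes were, and the other 6 were not called. Trp53 itself was counted by a probe that was high on the LT-HSC arrays alone. Without it 6 of 11 genes were higher and 1 lower in HSC subsets, with a median of 0.73, and 5 were lower in GMP. The 10-spot probe A_52_P491849 of Trp53 was not called in any of the 4 contrasts (-0.28 ± 0.22 in HSC subsets, adjusted p = 0.337). Trp53inp1, a nuclear stress protein induced by p53, had the largest difference in HSC subsets, 2.87 ± 0.17 (adjusted p = 6.74e-08), and Mdm4, which restrains p53, was the lower one, at -0.89 ± 0.22 (adjusted p = 0.00473). Between GMP and MEP Perp was higher in GMP by 2.20 ± 0.40 (adjusted p = 0.00122), and Zmat3, well above background on 1 of 3 GMP arrays, was lower, at -2.90 ± 0.33 (adjusted p = 2.47e-05).

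In the death receptor arm, which reaches the mitochondrion through Bid, 4 of 6 genes were higher in GMP than in the other populations, where 11.2% of all probes were, and the other 2 were not called. The receptor Tnfrsf1a was higher in GMP than in MEP by 3.47 ± 0.19 (adjusted p = 6.66e-08). In HSC subsets 2 genes were higher and 3 lower, against 18.2% and 23.1% of all probes. They included Cflar, an inhibitor of caspase 8, at 1.25 ± 0.17 (adjusted p = 7.89e-05) and the adaptor Fadd at -1.03 ± 0.10 (adjusted p = 7.07e-06). Among 8 partners and turnover genes, 2 were higher and 1 lower in HSC subsets, against the same 18.2% and 23.1% of all probes. They were led by Huwe1, a ubiquitin ligase of Mcl1, at 0.52 ± 0.10 (adjusted p = 0.000776), and by Usp9x, a deubiquitinase of Mcl1, at -1.19 ± 0.28 (adjusted p = 0.00422). None of these 8 was called in GMP against MEP, with 2 of them at an unadjusted p under 0.05 in limma.

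The gene names whose profiles were most like a member's over the 17 arrays, among 14723 probes above background on all of them, were Ncoa3 and Zfp422 for Bcl2 (r = 0.97 each), H2-DMb1 and Tspan2 for Pmaip1 (r = 0.97 each), Prkd2 and 9130011J15Rik for Mcl1 (r = 0.98 each) and Klf10 and Cish for Bbc3 (r = 0.97 each). For Bak1 they were Ssr1 and Coasy (r = 0.98 each), for Bid Sec23b and Tbc1d2b (r = 0.96 each) and for Bax Glrx2 (r = 0.97) and Dusp19 (r = 0.96). For Bcl2l11 the highest were Rabgef1 (r = 0.88) and R74862 (r = 0.86), and for Bcl2l1 Sdccag8 and Copg2 (r = 0.83 each).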

How the data were processed

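Agilent scanner files of 17 single-color arrays held, per the file headers, raw and processed spot intensity and 0 or 1 flags for each spot. The authors also deposited a table of normalized log2 values, whose order within each array matched the median signal, with column medians of 6.40 to 6.42. The submitters' processing notes name limma. Here the log2 of the processed signal was quantile-normalized over all spots, 1639 control spots and spots with an outlier mark were left out (161 probe values were then missing), and spots of a probe were averaged. limma 3.58.1 in R 4.3.3 fitted the 6 populations, with an F-test and 4 contrasts, each adjusted by Benjamini-Hochberg over 41174 probes. A contrast side was the mean of its population means. The number of arrays limits the precision. The fit was tested on simulated data.

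All members were named, each by its brightest probe, and from each pathway list the called genes with the largest difference each way in HSC subsets against myeloid populations and in GMP against MEP. A few list genes that this rule or the marker lists name are not reported here. Members and lists were chosen with earlier results of these data known. Alternatives were 75th percentile scaling, background correction by normexp (offset 50), the deposited log2 table, a filter leaving 30042 probes above background on at least 2 arrays, scanning day or slide as a block, a replicate block, the mean of a gene's probes, both LT-HSC arrays out and each array out. Reading Bad by its probe on the gene's strand and the p53 list without Trp53 were added after seeing the data. Probe positions are those of the files (mm9) and were not matched to the GRCm38.p6 promoters. Every same-numbered pair within a sort correlated above 0.1 in its deviations from the group means, and none across the 2 sorts did, so blocked values stand beside the results whose call they change. The replicate block nonetheless joined equal numbers of both sorts. It also took all unnumbered arrays, scanned on days 2, 3 and 4, as a single level. The labels do not say that these arrays belong together. In CMP, GMP and MEP number and slide cannot be told apart, and the ranges for same and different numbers overlapped.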

Additional observations from a re-analysis of the deposited data

Results flagged for a closer look

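Of 20 tests for a sample far from the others 2 were flagged, and chance gives about 1 in 20. Both flags fell on the unnumbered LT-HSC array, which stood apart from the other 7 HSC subset arrays. For Bcl2l1 it read 4.62 on the log2 scale, with the nearest array at 6.10. For Bad (minus-strand probe) it read 1.66, with the nearest at 4.39. On both probes this array was not well above background.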

How the results depend on the processing

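Of 25 called results of the brightest probes, 13 kept direction and call in all 27 other settings. Not every setting could change every result. Bax, Bid, Bbc3 and Pmaip1 have a single probe, so the mean of a gene's probes left their differences as they were. Reading Bad by its other probe could change results of Bad alone. With the replicate number as a block, 8 members were called in GMP against MEP, 5 higher and 3 lower, against 5 in all without it, while 4738 probes were higher and 4717 lower of all probes, against 3938 and 3214. Beside the calls given with their results, the block changed no other call of a brightest probe and ended no other call of a further probe. Leaving out 1 array at a time gave 2 to 5 members for that count, the fewest without MEP replicate 1. Same-numbered arrays of CMP, GMP and MEP deviated together with r of 0.131 to 0.335 and differently numbered ones with 0.0893 to 0.169, but among these numbered arrays each same-numbered pair shared a slide and no other pair did. The unnumbered arrays of CMP, GMP and MEP had r of 0.419 to 0.512, with only CMP and GMP on 1 slide. Same-numbered ST-HSC and MPP arrays, on 1 slide, had r of 0.285 and 0.521, and differently numbered ones 0.104 and 0.325. Across HSC subsets and myeloid populations same-numbered arrays had r of -0.0587 to 0.00581. What the numbers share was not tested. With scanning day in the fit, 2665 probes were higher and 2777 lower in HSC subsets, against 7478 and 9528 without it. Day and population overlap in few arrays, which limits that fit.

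Some differences turned sign. Bad in MEP was -0.35 with 75th percentile scaling, -0.0971 without both LT-HSC arrays, and -0.0284 to 0.671 with 1 array out (lowest without the unnumbered MEP array), against 0.34. Bcl2 in GMP was 0.16 with scanning day in the fit and 0.20 with the mean of all probes, against -0.39. Bcl2l11 in HSC subsets was -0.10 with the mean of all probes, Bax in GMP was -0.0541 without GMP replicate 2 and up to 0.430 with another array out, and the Bak1 probe A_52_P225207 in HSC subsets was -0.21 with scanning day in the fit. The cause was not tested. A lone array left in a group is assumed to vary like the other groups.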

Other observations

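Probes of Trp53, which encodes p53, gave unlike values, and the gene is named here because its values stood out. The probe A_52_P781398, a single spot, read 13.11 and 12.96 on the LT-HSC arrays and 8.85 to 9.79 on the other 15. The probe A_52_P491849, with 10 spots, read 9.47 and 9.88 on the LT-HSC arrays and 8.98 to 10.75 on the others. Both carry the accession NM_011640 in the files. The cause of the difference between them was not tested.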
